A study of Mus musculus with 4 samples.

Results

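The forkhead transcription factors described here are the 44 mouse genes whose symbol in the deposited tables is Fox followed by a subfamily letter from a to s and a member number, of 21965 genes quantified in all. The rule uses their names and no measured value, and the family was picked with earlier results of these data known. They cover 19 lettered subfamilies in 52 transcript rows, all with status OK. RNA sequencing compared pooled sciatic nerves of control mice and of Zeb2 cKO mice at postnatal day 7, on a mixed strain background. Zeb2 is a transcription factor with zinc fingers, and cKO means conditional knockout. The driver of the deletion, the deleted exons and the genotype of the controls beyond the word control are not given in the sources used here. The labels describe 2 samples per group, whereas each of the deposited tables used here holds a single library, which is known by its group alone. No test between the groups is therefore possible, and differences are described by their size. Below, control nerves and mutant nerves stand for these libraries of the Control and Zeb2 cKO groups, and of paired values the control comes first. Gene locations are in mm9 unless another build is named. Levels are given in FPKM, fragments mapped to a transcript, divided by its length and by the library's mapped fragments. This is a level per length, so genes of unlike length can be set side by side. Effects of base composition on it were not examined, so ranks between genes are approximate.

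Forkhead factors bind DNA through a conserved winged helix domain, in which a recognition helix lies in the major groove. They regulate the mesenchyme around vessels and nerves (Foxc, Foxd and Foxf), the neural crest from which Schwann cells arise (Foxd3), cell survival and metabolism under insulin-like signals (Foxo), mitosis (Foxm1), motile cilia (Foxj1) and neurons (Foxp). The sciatic nerve holds Schwann cells, fibroblasts, perineurial cells that sheathe the fascicles, and vessels, and its RNA is a mixture of them.

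The 30 coding bases at the start of the recognition helix are shown for 5 of the 6 forkhead genes that were 2-fold or more higher in mutant nerves and for 3 that were not, because through this helix the domain reads DNA. They are from GENCODE transcripts on GRCm38, 5′ to 3′ on the coding strand, and capitals mark the 17 bases that are the same in all 8. Each line gives the location and strand.
Foxc1, chr13:31807577-31807606, plus strand: AAcagcATaCGgCAcAAcCTcTCgCTcaAc
Foxc2, chr8:121116963-121116992, plus strand: AAcagcATcCGcCAcAAcCTgTCaCTcaAt
Foxd1, chr13:98355145-98355174, plus strand: AAcagcATcCGtCAcAAcCTgTCgCTcaAc
Foxd2, chr4:114908270-114908299, minus strand: AAtagcATcCGcCAcAAcCTcTCcCTcaAc
Foxs1, chr2:152932913-152932942, minus strand: AAcagcATcCGcCAtAAcCTgTCtCTcaAc
Foxd3, chr4:99657153-99657182, plus strand: AAcagcATcCGcCAcAAcCTgTCgCTcaAc
Foxk2, chr11:121296029-121296058, plus strand: AAttcaATtCGcCAcAAtCTcTCtCTgaAc
Foxm1, chr6:128370957-128370986, plus strand: AActctATtCGtCAcAAcCTtTCtCTccAt
Of the 30 bases, Foxd3 shared 29 with Foxd1, Foxs1, Foxc1 and Foxc2 shared 27 and Foxd2 shared 26. Foxd3, which is 1 base apart from Foxd1 here, differed from it in level and in ratio, as described below. Only 4 members held an identical run of 50 bases or more with another member, about the length of a read estimated from the tables, counted on either strand over whole transcripts. These were Foxd3 with Foxd4 (68 bases) and Foxc1 with Foxc2 (53 bases), so a small part of the reads of these genes could be assigned to either. The read length is an estimate (10th to 90th percentile 46.9 to 60.3 bases), and shorter runs were common. Foxd2 shared 47 bases with Foxd1 and with Foxd3, and Foxd1 shared 38 with Foxd3. Runs of 30 bases or more were held by 27 members. Genes outside the family were not searched.

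Of the 44 members, 21 reached a mean of 1 FPKM over both libraries and are called measured here, in 10 of the 19 subfamilies. The lowest mean among them was 1.10 FPKM (Foxf1a), and the highest below the line was 0.710 FPKM (Foxl1). In mutant nerves 6 of the 21 were 2-fold or more higher (Foxd1, Foxs1, Foxp2, Foxc1, Foxd2 and Foxc2) and 0 were 2-fold or more lower, by log2 ratios of FPKM plus a pseudocount of 1. Over all 12903 measured genes 8.59% lay 2-fold or more above and 6.25% as far below, beside 28.6% of the members above. Foxp2, at 0.827 FPKM in control nerves, reached the measured level through mutant nerves alone, so its call was partly decided by the filter and the share is a description. Among the 20 members at 1 FPKM or more in control nerves, a filter chosen after the values were seen, 5 were 2-fold or more higher, beside 6.96% of 12482 genes. The members' median log2 ratio was 0.39, and that of all measured genes was 0.18. With the mutant values rescaled so that the median gene had a ratio of 1, the members' median was 0.21 and the counts stayed at 6 higher and 0 lower. Over all genes the same rescaling gave 790 higher (6.12%) and 950 lower (7.36%), against 1109 and 806 as deposited. Of the 21 measured members, 14 had a log2 ratio above 0 and 7 below. Folds are ratios of FPKM with nothing added, each with a 95% counting interval from estimated reads, which covers counting error only and leaves out variation among animals, nerve pools and libraries. In pooled tissue RNA, fewer cells of a type and less RNA per cell cannot be told apart.

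**Figure D1:**
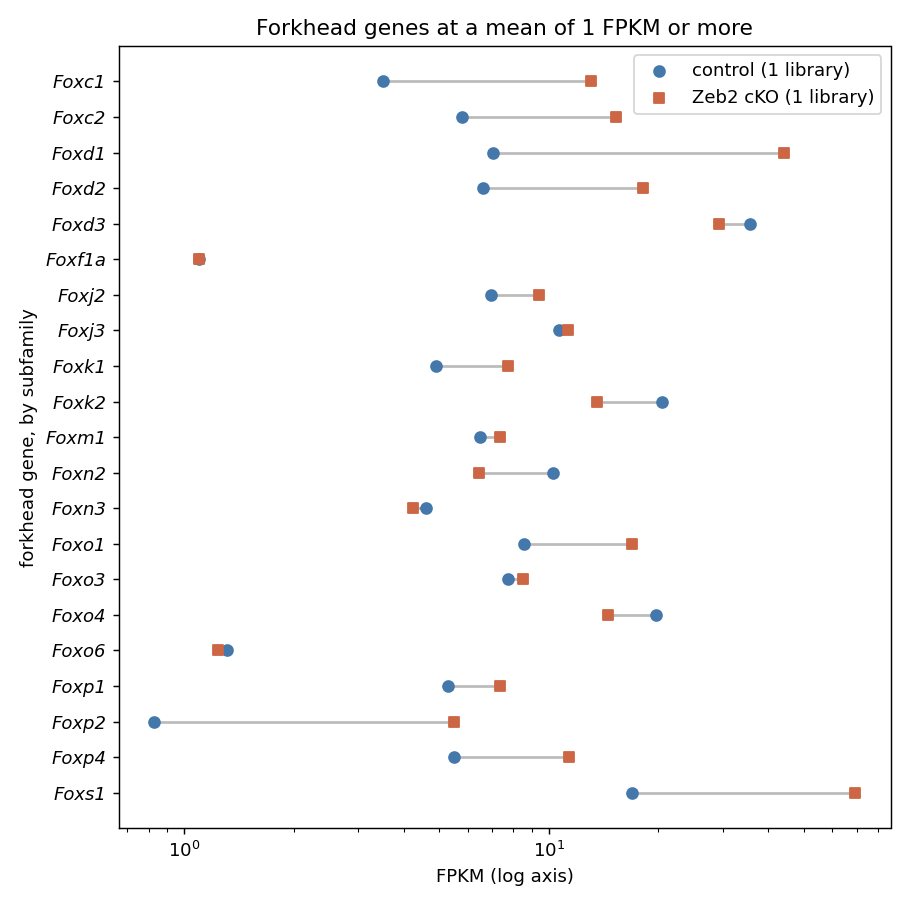
FPKM of the 21 measured forkhead genes on a log axis, with circles for control nerves and squares for mutant nerves, 1 library each. The longest lines join the values of Foxp2 (0.827 and 5.49 FPKM) and Foxd1 (7.04 and 44.2 FPKM), and Foxd3, Foxk2, Foxn2 and Foxo4 lie lower in mutant nerves.

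The order of the family by level differed at its top. In control nerves the highest member was Foxd3 at 35.7 FPKM, followed by Foxk2 (20.5), Foxo4 (19.7) and Foxs1 (16.9). In mutant nerves it was Foxs1 at 69.4 FPKM, followed by Foxd1 (44.2), Foxd3 (29.4) and Foxd2 (18.2). Foxs1 stood above 95.8% of all quantified genes in mutant nerves and above 82.5% in control nerves, and Foxd1 went from above 66.9% to above 93.1%. The summed level of all 44 members was 192 FPKM in control nerves and 319 FPKM in mutant nerves.

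**Figure D2:**
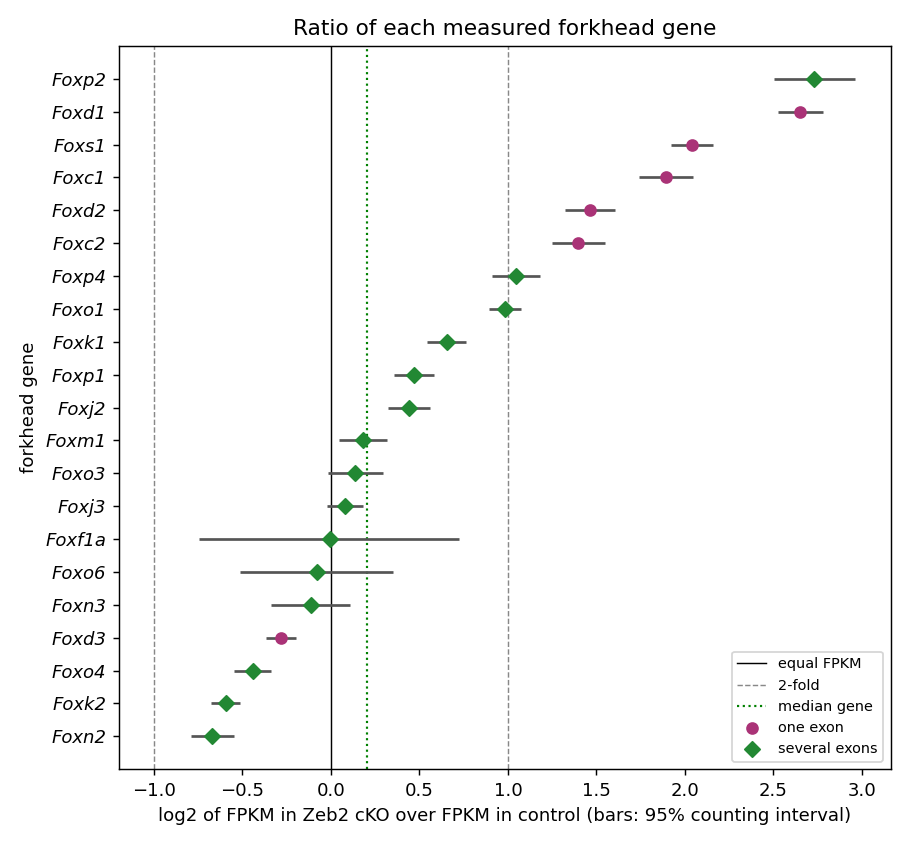
Log2 of the plain FPKM ratio (Zeb2 cKO over control) of the 21 measured members, with bars for the 95% counting interval, circles for genes of a single exon and diamonds for genes of several exons. Of the 6 circles 5 lie beyond the 2-fold line on the right and 1, Foxd3, lies left of 0, while 1 diamond, Foxp2, lies well beyond that line and Foxp4 and Foxo1 sit on it.

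The Foxd subfamily held the largest summed level in both libraries, 49.4 FPKM in control nerves and 91.8 FPKM in mutant nerves, and its members went apart. Foxd1, a factor of stromal and pericyte progenitors in the kidney and other organs (chromosome 13, 99124200 to 99126660, mm9), was at 7.04 FPKM in control nerves and 44.2 FPKM in mutant nerves. It was 6.28-fold higher (counting interval 5.75 to 6.87), on an estimated 615 and 2631 reads. Foxd2, a factor of paraxial and other mesenchyme (chromosome 4, 114578885 to 114581503), was at 6.60 and 18.2 FPKM, 2.76-fold higher (2.50 to 3.05). Foxd3, which maintains neural crest progenitors and is kept in the glial lineage (chromosome 4, 99322990 to 99325362), was at 35.7 FPKM in control nerves and 29.4 FPKM in mutant nerves, 1.22-fold lower (1.14 to 1.29), within 2-fold. Foxd3 was thus the higher of the Foxd1 and Foxd3 pair in control nerves and Foxd1 in mutant nerves. Foxd4 rested on about 2.4 reads in control nerves and was listed at 0 in mutant nerves. Beside the level of Foxd3, the summed level of 11 Schwann cell markers was 24088 FPKM in control nerves and 1727 FPKM in mutant nerves. Pmp22 and Mbp held most of that sum, and the other 9 markers summed to 1110 and 768 FPKM. The part of Schwann cells in the value of Foxd3 was not tested.

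Foxs1, a forkhead gene of the vessel wall and of neural crest derivatives, is the sole member of its subfamily (chromosome 2, 152757634 to 152758944). It was at 16.9 FPKM in control nerves and at 69.4 FPKM in mutant nerves. The difference was 4.11-fold (3.78 to 4.46), and Foxs1 alone took 8.79% of the summed forkhead level in control nerves and 21.7% in mutant nerves. No other gene of the tables overlaps its locus.

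Both Foxc genes were higher. Foxc1, required for the meninges, the anterior eye and vessels (chromosome 13, 31898515 to 31902504), was at 3.51 and 13.1 FPKM, 3.71-fold higher (3.35 to 4.13). Foxc2, which acts with Foxc1 in mesenchyme and shapes lymphatic valves (chromosome 8, 123640071 to 123642794), was at 5.79 and 15.3 FPKM, 2.63-fold higher (2.37 to 2.93). Rescaling to the median gene left the log2 ratio of Foxc2 at 1.07, the nearest of the 6 to the 2-fold line. Of 7 listed lymphatic endothelial markers 4 were measured and 0 of these were 2-fold apart, with a median log2 ratio of 0.42. Their summed level was 55.3 FPKM in control nerves and 54.0 FPKM in mutant nerves with Reln, the most abundant of them, and 18.7 and 27.8 FPKM without it.

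Calls in the marker lists for cells that surround the Schwann cells use the pseudocount. The perineurial, fibroblast and adipocyte lists held several genes 2-fold or more higher, and the endothelial lists held none. Of 12 measured perineurial markers 9 were 2-fold or more higher and 0 lower (Krt23, Cldn1 and Crabp2 with the largest log2 ratios with the pseudocount), and their summed level was 131 FPKM in control nerves and 372 FPKM in mutant nerves. Krt23 (0.222 and 14.7 FPKM) and Mpzl2 (0.711 and 3.60 FPKM) reached the measured level through mutant nerves alone, so their calls were partly decided by the filter. Of 13 measured fibroblast markers 7 were higher and 0 lower (Fbln1, Dcn and Dpp4 with the largest such log2 ratios), with sums of 5718 and 9466 FPKM, and Tcf21 was listed at 0 in both. After rescaling to the median gene 8 perineurial and 5 fibroblast markers stayed 2-fold or more higher. Of 7 measured adipocyte markers 4 were higher and 0 lower (220 and 532 FPKM), and 2 after rescaling. Pericyte and smooth muscle markers had 2 of 12 higher, Cspg4 and Rgs5, and 1 lower, Des (320 and 358 FPKM), with 0 higher after rescaling. Their sum includes Des, at 100 FPKM in control nerves and 19.8 FPKM in mutant nerves. The median log2 ratio of that list was 0.58 (0.42 after rescaling), beside 0.18 for all genes. All 17 listed skeletal muscle markers were also 2-fold or more lower, and the part of muscle in the value of Des was not tested. Of 14 blood endothelial markers 0 were 2-fold apart (262 and 389 FPKM), with a median log2 ratio of 0.58 (0.39 after rescaling). By the plain FPKM ratio 1 of these 14 was 2-fold or more higher and 0 lower. By the same ratio 4 of the 12 pericyte and smooth muscle markers were higher and 1 lower. The part of these cells in the levels of Foxc1, Foxc2, Foxd1, Foxd2, Foxp2 and Foxs1 was not tested.

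Several members lie next to each other in the genome, and near neighbours did not all differ alike. On chromosome 8 Foxc2 lies 29.3 kb from Foxf1a, the mouse Foxf1 gene of visceral and vascular mesenchyme, and 8.79 kb from Foxl1, a factor of subepithelial mesenchyme. Foxf1a was at 1.10 FPKM in both libraries, on about 41.4 and 28.2 reads, with a ratio of 0.998 (counting interval 0.595 to 1.65). Foxl1 was at 0.762 and 0.657 FPKM, below the measured level, a ratio of 0.862 (0.589 to 1.25). The middle gene of this group was thus the only one 2-fold or more apart. Smaller differences of Foxf1a and Foxl1 lie within their intervals. On chromosome 13 Foxf2, a gene of the vessel wall and gut mesenchyme, lies 64.8 kb from Foxq1 and 175 kb from Foxc1. Foxf2 was at 0.122 FPKM in control nerves and 0.738 FPKM in mutant nerves, below the measured level, a ratio of 6.03 (3.0 to 13.3) on about 10.3 and 42.2 reads. Foxq1 was at 0.0785 and 0.103 FPKM, on fewer than 8 reads in each. On chromosome 4 Foxe3, a lens gene, lies 16.2 kb from Foxd2 and was listed at 0 in control nerves and at 0.435 FPKM, about 9.12 reads, in mutant nerves.

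**Figure D3:**
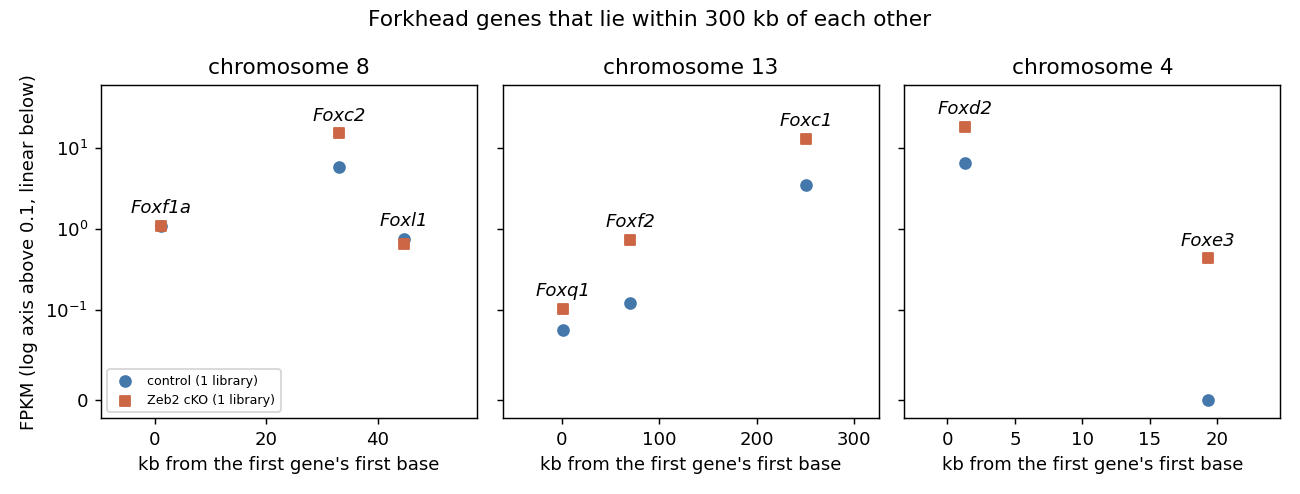
FPKM of forkhead genes that lie within 300 kb of each other, by distance in kb from the first base of the first gene of each group, on an axis that is logarithmic above 0.1 FPKM and linear below. Circles are control nerves and squares mutant nerves. On chromosome 8 Foxc2 differs between the libraries (5.79 and 15.3 FPKM) and Foxf1a on one side does not separate (1.10 in both), while on chromosome 13 Foxf2 and Foxc1 are both higher in mutant nerves.

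The hedgehog pathway, which lies upstream of Foxf and Foxl1 genes in mesenchyme and carries the Desert hedgehog signal from Schwann cells to the perineurium, was measured by a separate list. Among the 13 hedgehog genes measured, 8 lay above and 1 below the 2-fold lines (5 and 1 after rescaling to the median gene), with a median log2 ratio of 1.10 beside 0.18 for all genes. Hhip, a hedgehog-binding inhibitor that is itself induced by the pathway, was at 1.31 and 6.12 FPKM (4.67-fold higher), and Gli1, a transcription factor of the pathway, at 14.7 and 45.1 FPKM (3.07-fold). Disp1, which releases the ligand, was the member that was lower, at 16.3 and 5.15 FPKM (3.17-fold lower). Over the same libraries Foxf1a stayed within 2-fold, with a counting interval of its ratio of 0.595 to 1.65. Foxl1 and Foxf2, both below the measured level, had the plain ratios of 0.862 and 6.03 given above. A link between the hedgehog genes and the level of any forkhead gene was not tested.

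The Foxp factors, which carry a zinc finger and a leucine zipper beside the forkhead domain and bind DNA as dimers, differed among themselves. Foxp2, known for its part in speech circuits (chromosome 6, 14851349 to 15391977), was at 0.827 FPKM in control nerves, the lowest of the 21 measured members, and at 5.49 FPKM in mutant nerves. Its ratio of 6.64 (5.67 to 7.80) was the highest plain ratio of the measured members, on about 193 and 872 reads. Foxp4 (chromosome 17, 48004082 to 48061581) was at 5.51 and 11.4 FPKM, a ratio of 2.06 (1.88 to 2.26), which fell short of 2-fold with the pseudocount at a log2 ratio of 0.93. Foxp1 (chromosome 6, 98875336 to 99385339) was at 5.31 and 7.36 FPKM, 1.39-fold higher (1.28 to 1.5). Foxp3, the factor of regulatory T cells, was at 0.0517 and 0.0453 FPKM, on about 6.78 and 4.05 reads. Of 9 matched T cell markers 1 was measured, Tnfrsf18, at 1.00 and 3.03 FPKM, and Ctla4 was listed at 0 in mutant nerves.

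The transcripts of each Foxp gene differed to unequal extents, as far as their reads can be assigned. Both Foxp2 transcripts were higher, the one of 6423 bases from 0.494 to 3.12 FPKM and the one of 6760 bases from 0.333 to 2.36 FPKM, and the shorter one held 59.7% of the gene's level in control nerves and 56.9% in mutant nerves. For Foxp4 the main transcript of 3989 bases went from 4.37 to 7.61 FPKM (1.74-fold), and its share was 79.3% in control nerves and 67.0% in mutant nerves. The Foxp4 transcript of 4025 bases went from 0.375 to 1.71 FPKM (4.57-fold). The main Foxp1 transcript of 6632 bases was at 3.94 and 5.84 FPKM, and the one of 7025 bases was the only Foxp1 transcript that was lower, at 0.312 and 0.163 FPKM. Transcripts of a gene share exons, and the counting intervals do not include the error of dividing reads among them.

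**Figure D4:**
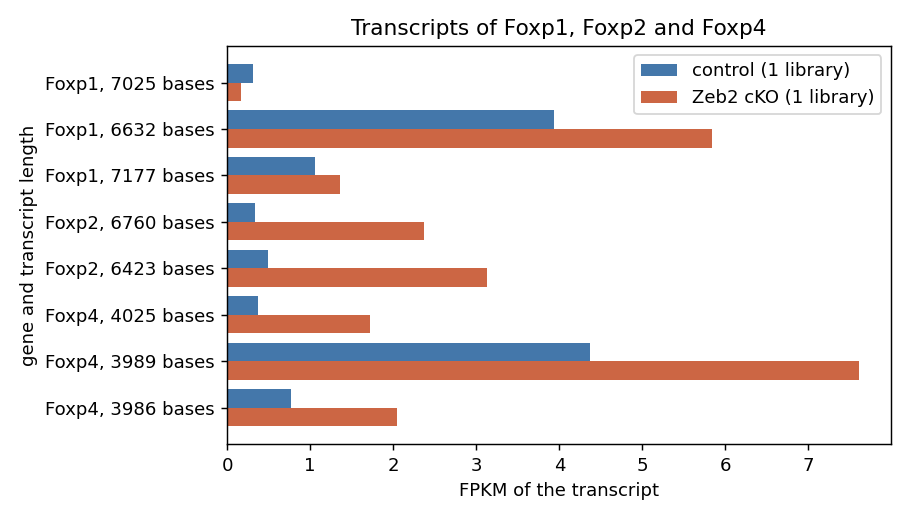
FPKM of each transcript of Foxp1, Foxp2 and Foxp4, named by length, with 1 bar for control and 1 for mutant nerves. Both Foxp2 transcripts and all 3 Foxp4 transcripts have the longer bar in mutant nerves, and the Foxp1 transcript of 7025 bases has the longer bar in control nerves.

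Foxo factors, which AKT kinases keep out of the nucleus when insulin-like signals are active, had a summed level of 37.3 FPKM in control nerves and 41.2 FPKM in mutant nerves, with members on either side of a ratio of 1. Foxo1 (chromosome 3, 52072259 to 52154031) was at 8.56 and 16.9 FPKM, 1.98-fold higher (1.86 to 2.11), just short of the 2-fold line. Foxo4 (chromosome X, 98449867 to 98456212), the highest Foxo gene in control nerves, was at 19.7 and 14.5 FPKM, 1.36-fold lower (1.26 to 1.46). Foxo3 was at 7.74 and 8.52 FPKM, and its interval of 0.988 to 1.23 held a ratio of 1, as it did not with an assumed read of 36 bases (lower bound 1.01). Foxo6, a form best known from neurons, was at 1.31 and 1.24 FPKM, with an interval of 0.699 to 1.27.

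Most genes that Foxo factors are known to activate stayed within 2-fold. Among the 25 targets, all measured, 19 were within 2-fold, 2 were higher (8.0%, beside 8.59% of all genes) and 4 lower (16.0%, beside 6.25%), or 1 and 4 after rescaling, with a median log2 ratio of -0.07 beside 0.18 for all genes. The cell cycle inhibitor Cdkn1a was at 137 FPKM in control nerves and 11.3 FPKM in mutant nerves, 12.1-fold lower, and Cdkn1b was 2.33-fold lower (91.3 and 39.2 FPKM). Trim63, a muscle ubiquitin ligase, was 3.71-fold lower, and Pdk4, a kinase that restrains pyruvate use, was 2.68-fold lower. Trib1, a pseudokinase, was 4.23-fold higher (2.35 and 9.95 FPKM) and Sesn3, a sestrin, 2.23-fold higher. Cdkn1b, Pdk4 and Sesn3 were named after their values were seen. All 17 listed skeletal muscle markers were 2-fold or more lower (sums of 7883 and 956 FPKM), and the part of muscle in the values of Trim63 and Pdk4, which muscle expresses, was not tested. Among 23 measured regulators of Foxo factors, 1 was higher, the PI3 kinase subunit Pik3cb (3.14-fold), and 2 were lower, the deacetylase Sirt2 (179 and 44.5 FPKM, 4.02-fold) and the kinase Sgk1 (48.6 and 18.2 FPKM, 2.67-fold). Their median log2 ratio was 0.23 (0.06 after rescaling), beside 0.18 for all genes. The shares of these regulators were 4.35% higher and 8.70% lower, beside 8.59% and 6.25% of all genes. The list includes Pdk1 (log2 ratio 0.82), a relative of Pdk4 rather than a known Foxo regulator. The count of 23, the shares and the median include it.

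Foxk, Foxn, Foxj and Foxm genes stayed within 2-fold, and the lowest ratios of the family were among them. Foxn2 (chromosome 17, 88840052 to 88889873) was at 10.3 FPKM in control nerves and 6.46 FPKM in mutant nerves, 1.59-fold lower (1.46 to 1.73), the lowest ratio of the measured members. Foxk2 (chromosome 11, 121121301 to 121171210), a regulator of autophagy and metabolic genes, was the second highest member in control nerves and was at 20.5 and 13.6 FPKM, 1.51-fold lower (1.43 to 1.60). Foxk1, its close relative, went the other way, from 4.91 to 7.73 FPKM, 1.57-fold higher (1.46 to 1.70). Foxn3, a checkpoint factor, was at 4.60 and 4.25 FPKM, with an interval of 0.790 to 1.08. Foxj2 was 1.36-fold higher (6.95 and 9.43 FPKM) and Foxj3 was at 10.7 and 11.3 FPKM, and neither is known for the cilium function of Foxj1. The signs of Foxj3, Foxm1 and Foxo3 turned below 0 after rescaling to the median gene, at log2 ratios of -0.11, -0.02 and -0.06. Of 18 measured partners and corepressors of forkhead factors 0 were 2-fold apart, with a median log2 ratio of 0.05, and Ctbp2, a corepressor, had the largest log2 ratio at 0.99, followed by Tle3 (0.59) and Tle4 (0.53).

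**Figure D5:**
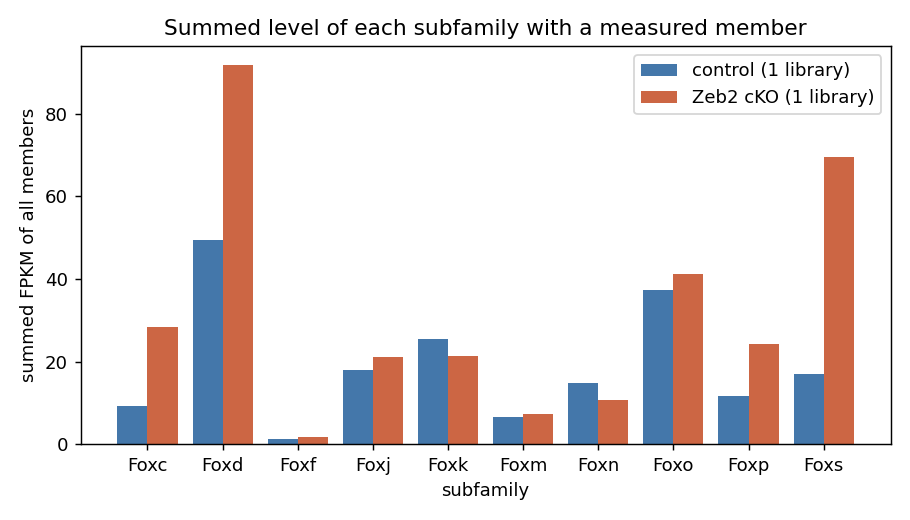
Summed FPKM of all members of each of the 10 subfamilies with a measured member, with 1 bar for control and 1 for mutant nerves. Foxc (9.30 and 28.3), Foxd (49.4 and 91.8), Foxp (11.7 and 24.3) and Foxs (16.9 and 69.4) have the longer bar in mutant nerves, Foxk (25.4 and 21.3) and Foxn (14.9 and 10.8) in control nerves.

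Foxm1, which drives genes of mitosis in dividing cells (chromosome 6, 128313012 to 128325904, overlapping 4933413G19Rik), was at 6.48 and 7.35 FPKM, 1.13-fold higher (1.03 to 1.25, or 0.994 to 1.29 with an assumed read of 100 bases). Of 20 measured genes of G2 and mitosis that are linked to Foxm1, 1 was 2-fold or more higher, the phosphatase Cdc25b (5.49 and 15.3 FPKM, 2.78-fold), and 0 were lower. The share higher was 5.0%, beside 8.59% of all measured genes. The median of that list was 0.43 beside 0.18 for all genes, and 0.25 beside 0.0075 after rescaling to the median gene. Bub1b and Ccnb2 were at log2 ratios of 0.66 and 0.59. Foxj1, the regulator of motile cilia, was at 0.419 and 0.392 FPKM. Of 24 genes of motile cilia 9 were measured and 0 of the 9 were 2-fold apart with the pseudocount, whereas 6 of the 9 were 2-fold or more higher by the plain FPKM ratio. The share of all genes by the plain ratio was not computed, and with a pseudocount of 0.1 it was 1558 of 12903 higher. Rsph1, 1 of the 6 (0.782 and 1.86 FPKM), reached the measured level through mutant nerves alone. The median log2 ratio with the pseudocount was 0.69, beside 0.18 for all genes. The largest log2 ratios were 0.99 for Rsph9, 0.96 for Dnaic2 and 0.85 for Rfx2. Tekt4 and Spag6 were listed at 0 in control nerves.

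The 23 members below the measured level ranged from 0 to about 80.1 estimated reads per library, the latter for Foxl1 in control nerves. Besides Foxe3, Foxf2, Foxj1, Foxl1 and Foxq1, 2 of them reached 0.1 FPKM. Foxa1, an endodermal pioneer factor, was at 0.152 and 0.169 FPKM, and Foxr1 at 0.510 and 0.455 FPKM, and both counting intervals held a ratio of 1. Another 10 were detected below 0.1 FPKM, among them Foxa2, Foxa3, Foxb1 and Foxn1 in mutant nerves only, Foxd4, Foxi2, Foxl2 and Foxn4 in control nerves only, and Foxp3 in both, each on fewer than 7 estimated reads per library. At this depth no difference can be read from them. Foxb2, Foxe1, Foxh1, Foxi1, Foxi3 and Foxr2 were listed at 0 in both libraries.

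The higher members were mostly genes without introns. Exon structure was compared after the ratios were known, and a gene was taken as single-exon where its transcript length equalled its genomic span in the tables. Of 6 measured single-exon members 5 were 2-fold or more higher (Foxc1, Foxc2, Foxd1, Foxd2 and Foxs1) and Foxd3 was not, with a median log2 ratio of 1.49. Of 15 measured members with several exons 1 was higher, Foxp2, with a median of 0.12. Among all other measured genes of at least 1000 bases, 9.89% of 273 single-exon genes and 8.26% of 11459 genes with several exons were 2-fold or more higher, with medians of 0.24 and 0.19. The single-exon members are also the Foxc, Foxd and Foxs genes, so subfamily and exon structure cannot be told apart here.

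Promoter windows were searched for CACCTG, the E-box that ZEB factors bind, or its reverse complement CAGGTG, in the 250 bases before each start. RefSeq windows on GRCm38.p6 were at hand for 28 members, 12 of them measured. Of 32851 windows of this length over all genes, 17.2% held the motif, beside 7 of the 33 windows of members. Of the 12 measured members, with 14 windows, Foxp4 and Foxp1 held it, in 1 window each. The other members with the motif, Foxa1, Foxa3, Foxi1, Foxr1 and Foxr2, were below the measured level. The 60 bases around the matches of Foxp4 and Foxp1 are shown on the strand of the gene, with the motif in capitals. They lie at 47924797 to 47924856 on chromosome 17 and 99028399 to 99028458 on chromosome 6, both on the minus strand.
Foxp4: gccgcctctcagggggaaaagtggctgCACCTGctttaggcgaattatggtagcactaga
Foxp1: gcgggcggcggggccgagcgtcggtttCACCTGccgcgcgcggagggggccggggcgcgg
The motif begins 197 bases before the start of Foxp4 and 133 bases before that of 1 of the 3 Foxp1 starts. Foxp4 and Foxp1 had ratios of 2.06 and 1.39. The windows of Foxc1, Foxd1 and Foxd2 did not hold these letters, which says nothing of sites elsewhere. Windows of Foxc2, Foxp2 and Foxs1 were not used here. The matches are letters in a window and not measured binding.

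The labels and the tissue were checked once for both libraries, which held an estimated 29563339 reads from control nerves and 20144477 from mutant nerves. Zeb2 was at 34.4 FPKM in control nerves and 19.5 FPKM in mutant nerves (ratio 0.568, counting interval 0.548 to 0.588), lower in the library labelled Zeb2 cKO. Of 11 measured Schwann cell markers 7 were 2-fold or more lower, Pmp22 and Mbp the most, and 3 higher, Gfap the most. Of 10 measured neural crest and melanocyte genes, a list of the lineage in which Foxd3 acts, 1 was higher, Tfap2a, and 2 lower, Pmel and Dct (121 and 168 FPKM). Ednrb held most of that sum, and without it the list summed to 40.1 and 35.1 FPKM. Tfap2a (0.188 and 2.94 FPKM) and Gfap (0.914 and 300 FPKM) reached the measured level through mutant nerves alone, so their calls were partly decided by the filter. Macrophage, neuronal and ribosomal protein lists had 0 members 2-fold apart, of 11, 7 and 14 measured.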

How the data were processed

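Both tables list 28107 RefSeq transcript rows with length, coverage, FPKM and status, per the file headers. FPKM comes from the authors' Cufflinks run, and its bias correction setting was not given in the sources used here. Coverage, a signal as deposited, gives reads over each base without scaling to the library. CASAVA, TopHat, Cufflinks and Cuffdiff and the build mm9 are named in the submitters' processing notes, without versions. Rows not OK in either library were left out (295), and FPKM was summed by symbol. Reads were estimated as coverage times length over 52.7 bases, the median of coverage times length in the lowest cluster of genes with 1 transcript above 2000 bases (474 values between 40 and 75), which gave 29563339 control and 20144477 Zeb2 cKO reads. Counting intervals are Clopper-Pearson (95%) on the library shares of estimated reads. Genes at a mean of 1 FPKM were measured, and ratios used a pseudocount of 1, which understates low genes. Python 3.11.15 and SciPy 1.17.1 were used.

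Members and lists were chosen with earlier results of these data known. Every member is accounted for. Of the 19 lists, pathway lists are given with the 3 measured genes of largest absolute log2 ratio, and marker lists by counts and sums, with such genes named where they passed 2-fold in the lists most relevant here. Summed levels cover all quantified entries of a list. Of 282 list entries 277 matched by symbol and 4 through RefSeq names. A few sequences and genes that these rules would name are not reported here. Helix sequences were located by translating GENCODE coding sequences. Code was tested on simulated libraries with known changes. Alternatives were other pseudocounts, filters, scalings, fold thresholds, row status and row choice.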

Additional observations from a re-analysis of the deposited data

How the results depend on the processing

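No paired analysis was possible because each group is represented by 1 library, so leaving out a replicate was not possible either. The 6 higher members stayed beyond 2-fold under the alternatives that gave each member a value (pseudocounts of 0.1 and 0.5, both scalings, every row status and the top row), and Foxp4 joined them with a pseudocount of 0.1 (log2 ratio 1.03). Foxp2 fell under a minimum mean of 5 FPKM, which left 5 of 17 members higher, beside 739 of 9105 genes in all. The members' median was 0.0378 with no filter (38 members, all genes 0.11), 0.21 after rescaling and 0.28 over members at 1 FPKM or more in control nerves, a filter chosen after seeing the data. By a 1.5-fold rule 1 of 21 members, Foxn2, was lower, and over all 12903 measured genes 2537 were higher and 1266 lower. The 1.5-fold rule gave 8 higher members. By a 3-fold rule 4 of 21 members were higher, and over all 12903 measured genes 401 were higher and 457 lower. At a mean of 5 FPKM 5 hedgehog genes were apart. Motile cilia genes apart numbered 6 and 3 with pseudocounts of 0.1 and 0.5, 1 with the top row and 6 by a 1.5-fold rule. Corepressors apart numbered 1 with either pseudocount and 2 by a 1.5-fold rule. The 1.5-fold rule gave 5 Foxo regulators and 3 Foxm1-linked genes apart, and the 3-fold rule gave 2 Foxo targets, 1 Foxo regulator, 0 Foxm1-linked genes and 2 hedgehog genes. These thresholds change the counts by construction, and the cause of the other changes was not tested. Read lengths of 36 or 100 bases scale the read estimates and the interval widths, and changed whether the interval held 1 for Foxo3 (36 bases) and Foxm1 (100 bases).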
